A study of Mus musculus with 23 samples.

Results

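The integrated stress response (ISR) is described here through 9 of its genes in brown adipose tissue (BAT), out of the 14651 genes of the deposited table. They were taken by symbol. Atf4, Atf3, Atf5 and Ddit3 encode transcription factors of the basic leucine zipper (bZIP) class, Trib3, Nupr1 and Chac1 are stress-induced genes downstream of ATF4, and Ppp1r15a and Ppp1r15b encode the subunits that direct protein phosphatase 1 to the initiation factor eIF2α. All 9 had a row and passed the authors' filter of at least 8 reads in at least 6 samples. Cold was the stressor and loss of the mitochondrial calcium uniporter pore MCU was the genotype, so the table holds the cold induction of each gene in both genotypes and the order of these effect sizes.

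RNA from BAT of 23 males of 8 to 12 weeks, on a largely C57BL/6 background, was sequenced, 1 library per mouse. The line with loxP sites in Mcu came from embryonic stem cells of mixed background and was then crossed to C57BL/6. Every mouse carried loxP sites around exon 2 of Mcu on both alleles (Mcu fl/fl), and BAT-Mcu-KO mice also carried a transgene in which the Ucp1 promoter drives Cre recombinase, so that deletion is directed to cells that use this promoter and not to the other cells of the tissue. BAT-Mcu-KO mice are called KO mice below. No group carried the transgene without the loxP sites, so loss of Mcu and the transgene itself cannot be told apart. At room temperature (RT) there were 6 control and 6 KO mice, and at 4°C, for 6 h, 5 control and 6 KO mice. Mice at 4°C were housed singly, without bedding and, per the labels, by default without food. For the sequenced mice at RT, food and caging during the 6 h are not given. The paper does state fasting at both temperatures for some of its other 6 h experiments. Cold therefore cannot be told apart here from the withdrawal of food, single housing or lack of bedding. Depth was 7129271 to 21006347 reads per mouse. The normalized count of Mcu was 70.8 to 136 in the 11 control mice and 15.2 to 42.4 in the 12 KO mice, without overlap. The 13 brown adipocyte markers summed to 183031 to 372331 normalized counts per mouse. Transcripts of 12 skeletal muscle markers summed to 14.9 to 62909, and 5 mice exceeded 30000, namely control 4°C mice 2 and 5 and KO RT mice 3, 4 and 6.

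In the ISR, kinases that sense different stresses phosphorylate eIF2α, which lowers general translation while the mRNAs of ATF4 and ATF5 are translated more. ATF4 then raises genes of amino acid supply and redox balance together with its own partners and brakes: ATF3 and CHOP (the product of Ddit3) act with or after it, TRIB3 binds and dampens it, and GADD34 (the product of Ppp1r15a) restores translation by removing the phosphate. Reads measure mRNA only, so neither translation nor phosphorylation was observed. In bulk tissue fewer cells of a type and less RNA per cell cannot be told apart.

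Because these genes are grouped as ATF4 partners and targets, the bases around their transcription starts were searched on both strands for short motifs. These were the C/EBP-ATF response element TGATGNAA, the cyclic AMP response element TGACGTCA and the related TGACGCAA. RefSeq windows (GRCm38.p6) of 250 bases before to 50 after a start were found for 8 of the 9 genes, and Ppp1r15b was not among them. TGATGNAA was in the windows of Atf3, Chac1, Nupr1 and Trib3, against 3.97% of all 32851 windows and 2.27% of the windows of genes in the table. The match of Trib3 lies at or after the start (first base at 14), and those of Atf3, Chac1 and Nupr1 lie before it. TGACGTCA was in that of Ppp1r15a (1.79% of all windows and 2.96% of those of genes in the table), and TGACGCAA was in that of Chac1 (0.49% and 0.84%). No 2 matches overlap. The stretches below are shown because Atf3, Chac1 and Nupr1 hold the same 8 bases before the start yet differed in direction in the cold, as described further on. Each runs 5′ to 3′ in the sense of its gene, and capitals mark the match, which for TGATGNAA reads as its reverse complement TTGCATCA.
Atf3 (chr1:191183390-191183489, minus strand, match from -110): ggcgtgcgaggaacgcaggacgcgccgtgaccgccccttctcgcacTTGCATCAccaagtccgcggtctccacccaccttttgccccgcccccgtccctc
Nupr1 (chr7:126625527-126625626, minus strand, match from -110): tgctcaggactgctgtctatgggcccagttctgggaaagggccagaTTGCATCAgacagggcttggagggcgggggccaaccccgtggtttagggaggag
Chac1 (chr2:119350992-119351091, plus strand, matches from -250 and -193): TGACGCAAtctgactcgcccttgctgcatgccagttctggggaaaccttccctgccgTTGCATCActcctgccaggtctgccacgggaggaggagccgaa
Ppp1r15a (chr7:45526269-45526368, minus strand, match from -12): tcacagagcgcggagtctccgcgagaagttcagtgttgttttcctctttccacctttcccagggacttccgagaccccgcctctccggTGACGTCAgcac
A match is a description of the sequence and not a binding site.

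Cold raised 7 of the 9 genes in control mice, lowered Nupr1 and left Ddit3 without a call. The same direction was called for 6 raised genes and for Nupr1 in KO mice, where Chac1 and Ddit3 were not called. Calls were made with limma on log2(normalized count + 1) at a Benjamini-Hochberg adjusted p under 0.05 over all genes, and every log2 change given is on that scale. Over all 14651 genes, cold raised 22.3% and lowered 23.7% in control mice and raised 21.4% and lowered 21.9% in KO mice. The median change of the 9 genes was 1.66 on the log2 scale in control and 0.78 in KO mice, against -0.02 for all genes in both. Between the temperatures, 6 of the 9 genes in control mice and 4 in KO mice were higher in every mouse at 4°C than in every mouse at RT, as were 13% and 12.4% of all genes. Nupr1 was lower without overlap in both, as were 12.3% and 11.9% of all genes. Without the 5 mice high in muscle transcripts, an alternative chosen after seeing the data, 8 genes were still called in control mice and 6 in KO mice, the lost call being that of Atf5.

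**Figure D1:**
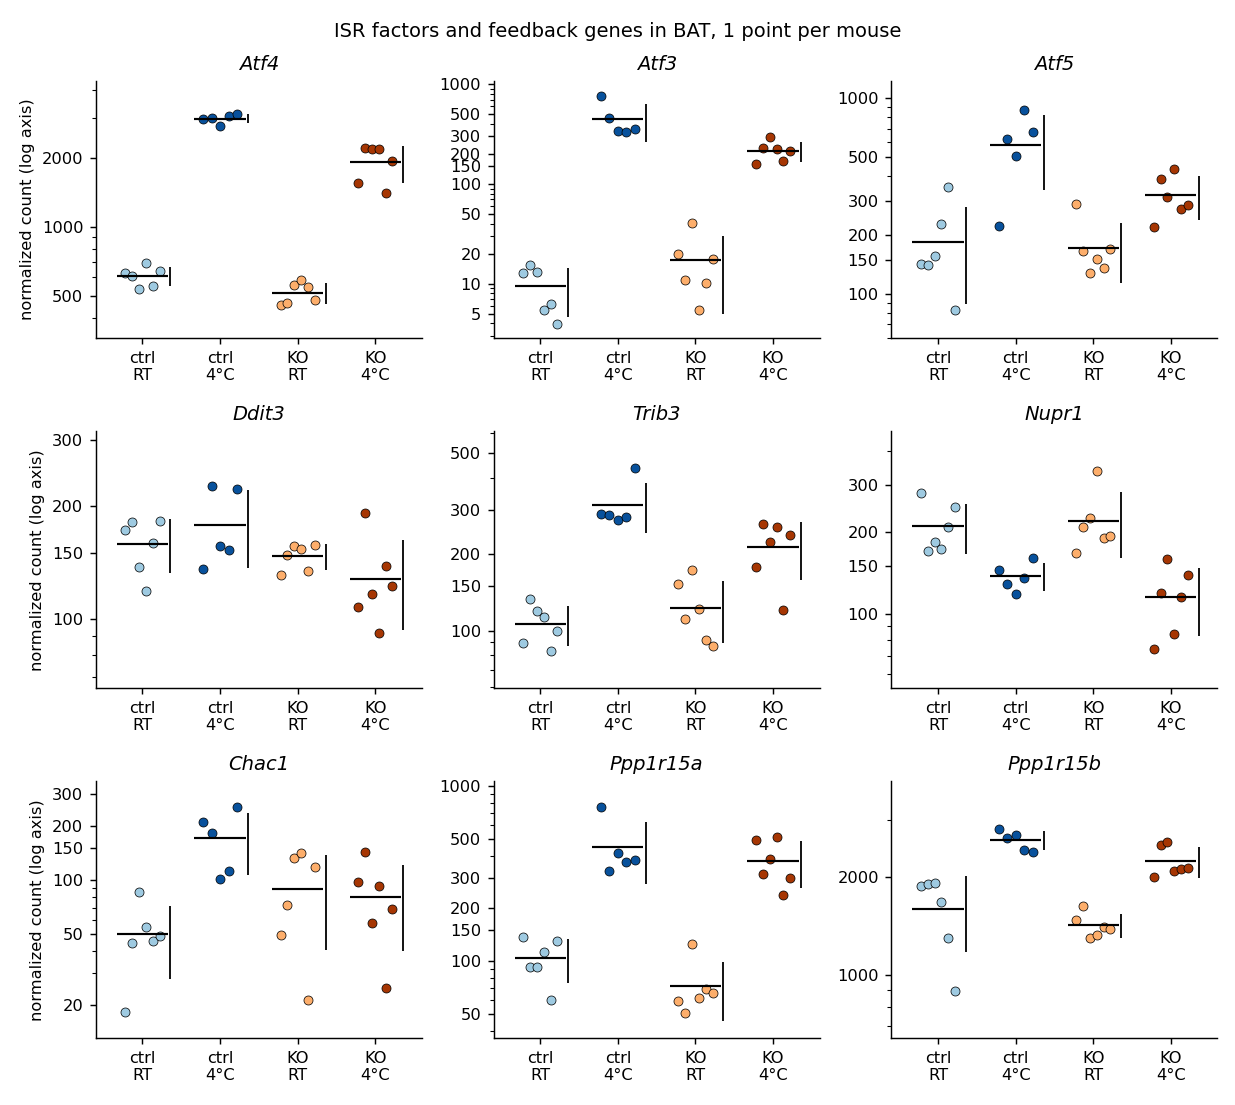
Normalized counts (log axis) of the 9 genes in the 4 groups, 1 point per mouse, with the mean as a horizontal bar and ± 1 SD as a vertical bar at its right. Atf4 and Atf3 at 4°C lie above all mice at RT, and Nupr1 lies below them within each genotype.

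Atf4, which encodes the central factor of the response, varied little between control mice at 4°C, with a coefficient of variation of 4.58%. In control mice it ran from 536 to 695 normalized counts at RT with a median of 620, and the 5 mice at 4°C had 2977, 3015, 2769, 3071 and 3128. In KO mice it ran from 455 to 585 at RT (median 512) and from 1417 to 2218 at 4°C (median 2069). The groups at RT and at 4°C did not overlap in either genotype, and the mice at 4°C also separated by genotype. Its log2 change with cold was 2.30 ± 0.11 (SE) in control mice (limma adjusted p = 3.89e-14), a 4.91-fold ratio of means. In KO mice it was 1.88 ± 0.10 (limma adjusted p = 5.89e-13), a ratio of 3.74. Ranked by p-value over all genes, Atf4 stood in place 5 for cold in control mice and in place 12 in KO mice. The gene lies on chromosome 15 (80255184 to 80257541, plus strand, GRCm38). The others lie on chromosomes 1 (Atf3 and Ppp1r15b), 2 (Trib3 and Chac1), 7 (Atf5, Nupr1 and Ppp1r15a) and 10 (Ddit3).

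Atf3, a stress-inducible bZIP factor that mostly acts as a repressor, had the widest change. At RT it was read 4 to 17 times in control and 6 to 43 times in KO mice. Normalized counts at RT ran from 3.97 to 15.5 (median 9.56) in control and from 5.38 to 40.4 (median 14.3) in KO mice. At 4°C the control mice had 771, 455, 342, 334 and 356, and the KO mice ran from 158 to 297 with a median of 221. All mice at 4°C were above all mice at RT, and all KO mice at 4°C were below all control mice at 4°C. The log2 change with cold was 5.49 ± 0.37 in control (limma adjusted p = 1.21e-11) and 3.78 ± 0.35 in KO mice (limma adjusted p = 2.99e-09). The ratios of means were 47.3 and 12.4, and both rest on few reads at RT.

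Atf5, a bZIP factor whose mRNA is under translational control like that of Atf4, rose with a wide spread. Control mice had 83.4 to 352 normalized counts at RT (median 150) and 223, 618, 505, 876 and 673 at 4°C. Control 4°C mouse 1, at 223, lay inside the range of RT, and the other 4 mice lay above it. KO mice ran from 129 to 288 at RT (median 158) and from 220 to 438 at 4°C (median 300), with 3 of 6 cold mice above every mouse at RT. The log2 change was 1.66 ± 0.31 in control (limma adjusted p = 8.13e-05) and 0.90 ± 0.29 in KO mice (limma adjusted p = 0.0148). The latter call was lost without the mice high in muscle transcripts, with a log2 change of 0.74 (limma adjusted p = 0.144). Atf5 shares 82 bases of exon with Nup62 and with Il4i1 on the other strand, and the authors counted reads irrespective of strand, so reads from those bases cannot be assigned.

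Ddit3 encodes CHOP, a bZIP factor tied to prolonged ER stress and cell death. It ran from 119 to 183 normalized counts in control mice at RT (median 166), and the 5 control mice at 4°C had 136, 226, 157, 153 and 221. KO mice ran from 131 to 157 at RT (median 151) and from 91.5 to 191 at 4°C (median 120). The ranges at the 2 temperatures overlapped in both genotypes. The log2 difference, 4°C minus RT, was 0.15 ± 0.17 in control (limma adjusted p = 0.469) and -0.23 ± 0.16 in KO mice (limma adjusted p = 0.253). Ddit3 shares 68 bases of exon with Mars on the other strand, and 105 bases with a second gene model of the same symbol.

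Trib3 encodes a pseudokinase that binds ATF4 and AKT. In control mice it ran from 82.8 to 133 normalized counts at RT (median 106), and at 4°C 4 mice lay close together at 287, 287, 274 and 281 while mouse 5 had 437. KO mice ran from 86.9 to 173 at RT (median 116) and from 120 to 262 at 4°C (median 231). The control groups did not overlap, and 5 of 6 KO mice at 4°C were above every one at RT. The log2 change was 1.54 ± 0.20 in control (limma adjusted p = 6.17e-07) and 0.78 ± 0.19 in KO mice (limma adjusted p = 0.00151).

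Nupr1, which encodes a small chromatin-associated protein induced by many stresses, fell with cold in both genotypes. Control mice ran from 171 to 280 normalized counts at RT (median 197) and had 146, 129, 118, 135 and 160 at 4°C. KO mice ran from 168 to 338 at RT (median 202) and from 74.3 to 160 at 4°C (median 117). All mice at 4°C were below all mice at RT of their genotype. The log2 change was -0.59 ± 0.19 in control (limma adjusted p = 0.0111) and -0.95 ± 0.18 in KO mice (limma adjusted p = 0.000111). Its relative Nupr1l also had a negative change, -1.46 ± 0.21 in control (limma adjusted p = 2.93e-06) and -0.28 ± 0.20 in KO mice (limma adjusted p = 0.266, not called).

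Chac1 encodes a cyclotransferase that breaks down glutathione. Control mice ran from 18.2 to 85.9 normalized counts at RT (median 47.1) and had 210, 182, 101, 112 and 253 at 4°C, without overlap. KO mice had 49.2, 72.4, 132, 141, 21.4 and 117 at RT and 96.6, 144, 57.5, 92.4, 24.8 and 68.4 at 4°C, so the ranges at both temperatures overlapped. The log2 change was 1.81 ± 0.44 in control (limma adjusted p = 0.00147), and the difference was -0.07 ± 0.42 in KO mice (limma adjusted p = 0.909).

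The level of muscle transcripts moved with Chac1 among the KO mice at RT. The 3 KO RT mice above 30000 summed counts of muscle markers (43184 to 62909) had 117 to 141 of Chac1, and the 3 below (21.4 to 4032) had 21.4 to 72.4, with a mean of 47.7 against 49.6 in control mice at RT. Among control mice at 4°C the 2 above the limit had 182 and 253 and the 3 below had 101 to 210. The value of 210 belonged to mouse 1, with a muscle sum of 26.3. Control mice at RT were all below the limit, and mouse 1, highest among them in that sum (8530), had the lowest Chac1 (18.2). Without these 5 mice the log2 change of Chac1 with cold in KO mice was 0.72, and still not called (limma adjusted p = 0.251). The part of muscle tissue in these values was not tested. None of the 12 muscle markers was called in any of the comparisons, with 12 of 12 higher in KO mice at RT (median log2 difference 1.83), none of them called.

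**Figure D2:**
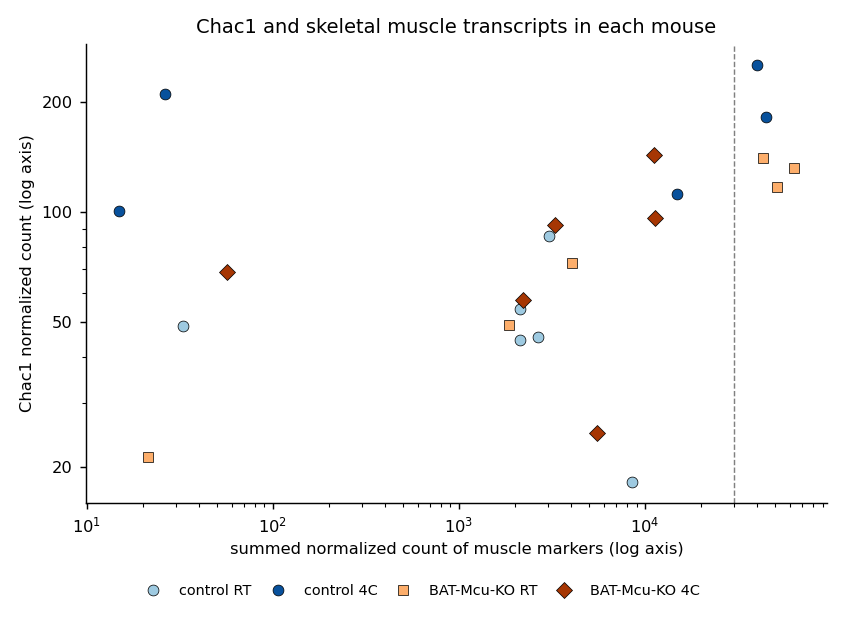
Chac1 normalized count against the summed normalized count of 12 skeletal muscle markers in each of the 23 mice, both on log axes, with a dashed line at 30000. The 3 KO mice at RT right of the line hold 117 to 141 counts of Chac1 and the 3 left of it 21.4 to 72.4.

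Ppp1r15a and Ppp1r15b encode the inducible and the constitutive subunit of the eIF2α phosphatase, and both rose with cold in both genotypes. Ppp1r15a ran from 60.1 to 138 normalized counts in control mice at RT (median 102), and at 4°C they had 761, 329, 416, 367 and 380. In KO mice it ran from 50.7 to 126 at RT (median 64.0) and from 237 to 514 at 4°C (median 347). No mouse at 4°C was within the range of RT. The log2 change was 2.08 ± 0.25 in control (limma adjusted p = 1.62e-07) and 2.36 ± 0.23 in KO mice (limma adjusted p = 9.98e-09), and Ppp1r15a was the only gene of the 9 with the larger estimate in KO mice among those that rose in both.

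Ppp1r15b ran from 897 to 1925 normalized counts in control mice at RT (median 1779), and at 4°C they had 2814, 2641, 2703, 2429 and 2398. In KO mice it ran from 1300 to 1636 at RT (median 1399) and from 2002 to 2571 at 4°C (median 2123). The temperatures did not overlap in either genotype. The log2 change was 0.75 ± 0.14 in control (limma adjusted p = 0.0001) and 0.65 ± 0.13 in KO mice (limma adjusted p = 0.000322). Ppp1r15a shares 12 bases of exon with Tulp2 and Ppp1r15b 640 bases with Gm26616, both on the other strand.

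Ordered by their log2 change with cold, the genes ran Atf3, Atf4, Ppp1r15a, Chac1, Atf5, Trib3, Ppp1r15b, Ddit3 and Nupr1 in control mice. In KO mice they ran Atf3, Ppp1r15a, Atf4, Atf5, Trib3, Ppp1r15b, Chac1, Ddit3 and Nupr1. The difference between neighbours was tested within mice, by a two-sided exact permutation test of the log2 ratio of the pair between temperatures, with p-values adjusted over the 16 neighbouring pairs. The smallest p the design allows was 0.00433 in control and 0.00216 in KO mice.

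In control mice Atf3 exceeded Atf4 by 3.19 (exact adjusted p = 0.026), Trib3 exceeded Ppp1r15b by 0.80 (exact adjusted p = 0.0462) and Ddit3 exceeded Nupr1 by 0.75 (exact adjusted p = 0.0277). The call of Trib3 over Ppp1r15b was lost without any 1 of the control mice except RT mouse 6 (exact adjusted p up to 0.102), and that of Ddit3 over Nupr1 without any 1 except RT mice 2 and 6 and 4°C mouse 1 (up to 0.061). The differences themselves ran from 0.64 to 0.94 and from 0.63 to 0.86 with single mice left out, and fewer mice raise the smallest p that an exact test can give. Among the 5 genes from Atf4 to Trib3 no neighbour was called, the differences being 0.12 to 0.27 with exact adjusted p-values of 0.651 to 0.818. Genes that were not neighbours, such as Atf4 (2.30) and Trib3 (1.54), were not compared, so an order between them is not excluded. In KO mice Atf3 exceeded Ppp1r15a by 1.41, Atf4 exceeded Atf5 by 0.98 and Ddit3 exceeded Nupr1 by 0.71, each with an exact adjusted p of 0.026. The other 5 pairs there differed by 0.11 to 0.72 with exact adjusted p-values of 0.151 to 0.818. Of these, Ppp1r15a over Atf4 passed without RT mouse 3 (0.63, exact adjusted p = 0.0231). Without the mice high in muscle transcripts none of the 16 pairs passed, but the smallest unadjusted exact p that 6 against 3 mice allow is 0.0238 and the smallest adjusted exact p was 0.0952, so this says nothing of stability. Atf3 at the top and Nupr1 at the bottom stood apart from their neighbours in both genotypes when all mice were used.

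**Figure D3:**
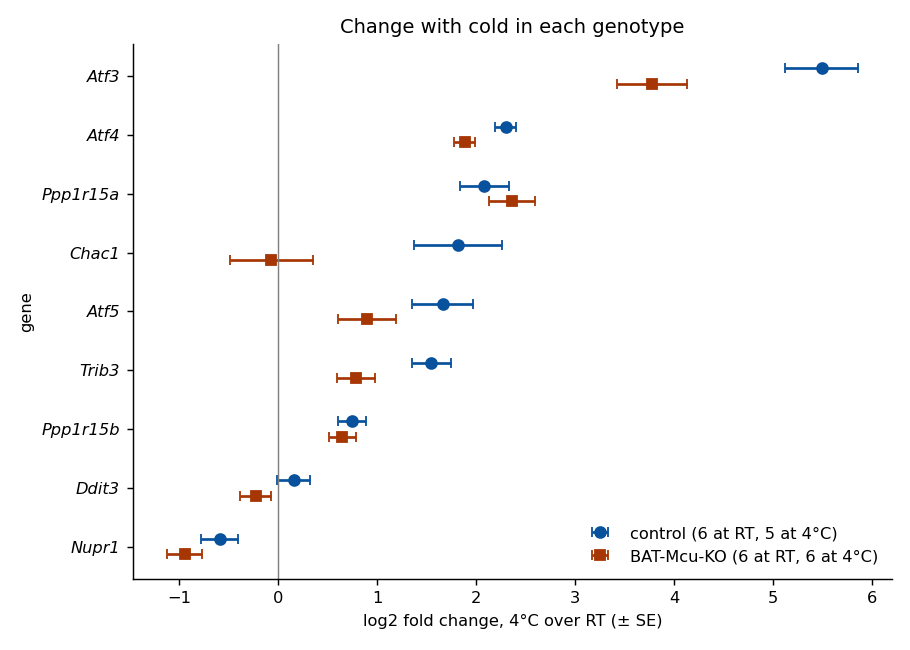
Log2 fold change of each gene at 4°C over RT with its SE, in control (circles) and KO mice (squares), ordered from the largest change in control mice at the top. Atf3 is at 5.49 and 3.78, Ddit3 and, in KO mice, Chac1 lie near 0, and Nupr1 is below 0 in both.

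Levels were compared between genes per kilobase of exon, since longer genes gather more reads. At RT the highest were Ppp1r15b and Atf4, with 286 ± 74.5 and 259 ± 25.1 (SD, n = 6) normalized counts per kb in control mice, an order seen in 4 of 6 mice. Atf3 was lowest at 4.43 ± 2.27 per kb, below Chac1 at 30.3 ± 13.3 in 6 of 6 mice. At 4°C Atf4 led with 1269 ± 58.1 per kb (n = 5), above Ppp1r15b at 464 ± 32.0 in 5 of 5 mice, and Atf3 had moved from the last place to the 4th at 210 ± 85.9. Nupr1 was last at 54.8 ± 6.41 per kb. In KO mice Atf4 went from 218 ± 23.2 to 815 ± 151 per kb (n = 6 each) and again passed Ppp1r15b, which went from 255 ± 21.7 to 400 ± 43.1. Chac1, at 49.2 ± 24.7, and Nupr1, at 45.8 ± 12.8, ended the order at 4°C and could not be told apart, with Chac1 higher in 3 of 6 mice.

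Between the genotypes at RT none of the 9 genes was called by limma, against 0.0478% of all genes (7 genes), and 2 of the 9 had an unadjusted p under 0.05, as did 754 of the 14651 genes. These were Atf4, with a log2 difference, KO minus control, of -0.25 ± 0.10, and Ppp1r15a, with -0.54 ± 0.23 (both limma adjusted p = 0.94). Chac1 had 0.71 ± 0.42 and Atf3 0.70 ± 0.35, and neither was called. That of Chac1 was -0.087 without the mice high in muscle transcripts.

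At 4°C all 9 genes had lower estimates in KO than in control mice, and 1 of 9 was called, against 0.0751% of all genes (11 genes, in either direction). This was Atf4, which had 2992 ± 137 (SD, n = 5) normalized counts in control and 1922 ± 356 (SD, n = 6) in KO mice. All 6 KO mice were below all 5 control mice, and the log2 difference was -0.66 ± 0.11 (limma adjusted p = 0.0151). The call was lost when only the 11 mice at 4°C entered the fit (log2 difference -0.66, limma adjusted p = 0.243) and without the mice high in muscle transcripts (-0.63, limma adjusted p = 0.3). Atf3, at -1.02 ± 0.37, and Trib3, at -0.58 ± 0.20, were also lower in all 6 KO mice than in any control mouse without a call (limma adjusted p = 0.57 and 0.533). Groups without overlap in this direction were thus found for 3 of the 9 genes, against 0.293% of all genes.

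The remaining estimates at 4°C were not called either. An unadjusted p under 0.05 was found at 4°C for 6 of the 9 genes, Atf4, Atf3 and Trib3 among them, and for 1023 of the 14651 genes. Chac1 had -1.18 ± 0.44, Atf5 -0.76 ± 0.31 and Ddit3 -0.48 ± 0.17, each with an unadjusted p under 0.05 and limma adjusted p-values of 0.531 to 0.626. Nupr1, Ppp1r15a and Ppp1r15b had -0.30 ± 0.19, -0.25 ± 0.25 and -0.22 ± 0.14 (limma adjusted p = 0.793 to 0.865). The median of the 9 was -0.58 on the log2 scale against 0.01 for all genes.

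**Figure D4:**
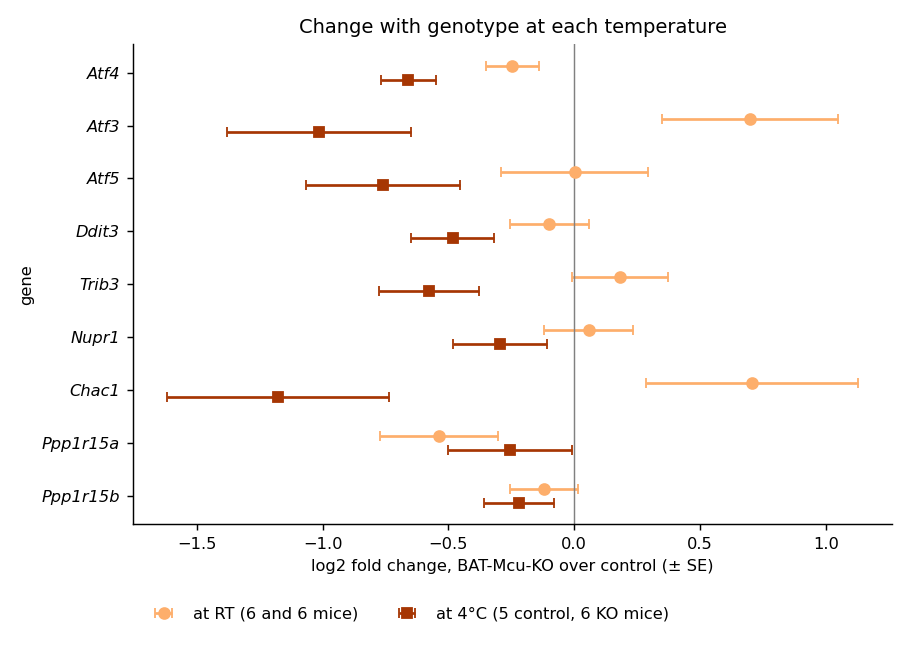
Log2 fold change of each gene in KO over control mice with its SE, at RT (circles) and at 4°C (squares). All 9 squares lie left of 0, from -0.22 to -1.18, while the circles lie on both sides.

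Whether cold acted differently in the 2 genotypes was tested by the interaction term. It was called for 0 of the 9 genes and for 0% of all genes by limma and likewise by edgeR, while DESeq2 on the recovered reads called 28 genes and none of these 9. An unadjusted p under 0.05 was found for 878 of the 14651 genes by limma and for 4 of the 9. These 4 were Atf3 with -1.71 ± 0.51, Chac1 with -1.88 ± 0.61, Trib3 with -0.76 ± 0.27 and Atf4 with -0.41 ± 0.15 on the log2 scale, each a smaller estimate of the change with cold in KO mice (limma adjusted p = 0.713 to 0.78). Without the mice high in muscle transcripts the term of Chac1 was -0.82 (limma adjusted p = 0.915). Ppp1r15a was the only one of the 9 with a positive term, 0.28 ± 0.34. The lower called count of genes in KO mice is therefore not shown to be a difference between the genotypes.

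At each temperature the genes were compared with Atf4 mouse by mouse, as deviations from the group means, in a permutation test within groups adjusted over the 16 relations (8 genes at 2 temperatures). Trib3 followed Atf4 in the 11 mice at 4°C, with Pearson r = 0.84 (permutation adjusted p = 0.0354) and Spearman rho = 0.87 (permutation adjusted p = 0.0483). Without the 2 mice farthest from the median of Atf4, r was 0.64. The relation no longer passed when any 1 of control 4°C mice 3 and 5 or KO 4°C mice 1, 2, 4 and 5 was left out, with r from 0.67 to 0.92 (permutation adjusted p = 0.0618 to 0.192). It did not pass either without the mice high in muscle transcripts (r = 0.92, permutation adjusted p = 0.162). The lowest r was without KO 4°C mouse 5, which had the lowest Atf4 (1417) and the lowest Trib3 (120). The other 7 genes at 4°C had r from 0.09 to 0.58, and the 8 at RT from -0.44 to 0.60, none past the threshold.

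**Figure D5:**
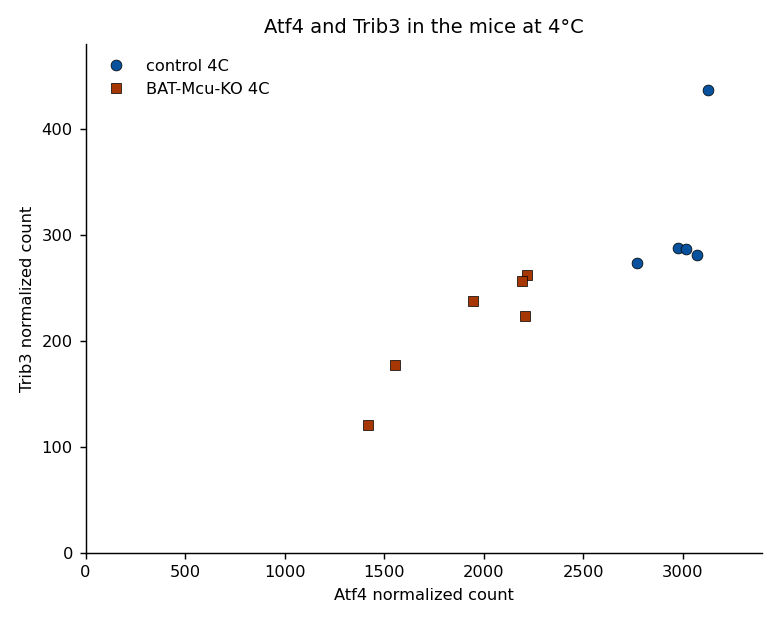
Trib3 against Atf4, both as normalized counts on linear axes from 0, in the 5 control (circles) and 6 KO mice (squares) at 4°C. All squares lie below and left of all circles, and the KO mouse with 1417 counts of Atf4 is also lowest in Trib3 at 120.

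Of 9522 other genes with a mean normalized count of at least 50, those most like Atf4 over the 23 mice on the log2 scale were Nars (r = 0.99), Eprs, Aars (both 0.98), Nop2 (0.98) and Ppargc1a (0.97). Nars, Eprs and Aars encode aminoacyl-tRNA synthetases, and Ppargc1a encodes PGC-1α, a coactivator of mitochondrial and thermogenic genes. The points share the split by temperature. With the group means taken out, Nars was again first (r = 0.76), followed by Gpr89 (0.70), Rnf6 (0.65), Ctns (0.65) and Fam50a (0.64).

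Upstream, the 16 listed genes of eIF2, its exchange factor eIF2B, the kinases and phosphatase subunits had 8 higher and 3 lower with cold in control mice. In KO mice 5 were higher and 3 lower (medians 0.31 in control and 0.18 in KO mice on the log2 scale). Of all genes, 22.3% were called higher and 23.7% lower in control mice, and 21.4% and 21.9% in KO mice. These shares also stand beside the list counts given below, and no list was tested against them. Eif2b3, an eIF2B subunit, rose by 1.43 and 1.45, and Eif2s2, a subunit of eIF2, by 0.48 and 0.45. Ppp1cb, a catalytic subunit of protein phosphatase 1, rose by 0.47 in control mice and had 0.07 in KO mice, not called (limma adjusted p = 0.633). Among the kinases, Eif2ak3, which encodes the ER stress sensor PERK, rose by 0.64 ± 0.19 in control mice (limma adjusted p = 0.00759) and had 0.33 ± 0.18 in KO mice (limma adjusted p = 0.142). Eif2ak2, the kinase that senses double-stranded RNA, had -1.24 ± 0.19 and -0.69 ± 0.18 and was called lower in both (limma adjusted p = 7.55e-06 and 0.00305). Eif2ak4, which encodes the amino acid sensor GCN2, had -0.33 ± 0.17 in control and was called lower at -0.48 ± 0.16 in KO mice (limma adjusted p = 0.116 and 0.0169). Eif2ak1, the heme-regulated kinase, had 0.13 and 0.10 and was not called.

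Downstream, of 32 listed ATF4 targets of amino acid and one-carbon metabolism with a row, 22 were higher and 3 lower with cold in control mice and 18 and 5 in KO mice (medians 0.99 and 0.60). Slc3a2, a subunit of amino acid exchangers, rose by 3.13 and 2.93, and Nars, Eprs and Aars rose by 1.13, 0.97 and 1.06 in control and by 0.87, 0.76 and 0.84 in KO mice. Mthfd2, an enzyme of mitochondrial one-carbon metabolism, rose by 2.85 ± 0.30 and 0.87 ± 0.28 and was besides Atf4 the only listed ISR gene called between the genotypes at 4°C, at -1.69 ± 0.30 (limma adjusted p = 0.0151). Its mean was 209 ± 78.6 (SD, n = 5) normalized counts in control and 67.9 ± 31.9 (SD, n = 6) in KO mice. Whether the call of Mthfd2 held in the fits in which that of Atf4 was lost was not examined.

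Of 16 listed ATF4 targets in signalling and stress, 8 were higher and 1 lower in control and 8 and 2 in KO mice (medians 0.49 and 0.53). Fgf21, a secreted metabolic hormone, rose by 5.29 ± 0.62 and 2.74 ± 0.59 from means of 2.28 and 2.71 normalized counts at RT, with a lowest value of 0 in both genotypes. Dusp1, a phosphatase of MAP kinases, rose by 2.59 and 3.05 and Sqstm1, an autophagy receptor, by 0.94 and 0.71, while Eif4ebp1, a repressor of translation initiation, was lower (-1.06 and -1.02). The ATF6 and XBP1 branches of the unfolded protein response had 10 higher and 4 lower of 20 genes in control and 10 and 5 in KO mice (medians 0.29 and 0.36), with the chaperone partner Dnajb9 (1.84 and 1.57) and the sensor Atf6 (1.23 and 0.79) higher and the disulfide isomerases Pdia4 (-1.15 and -0.92) and Pdia6 (-0.80 and -0.68) lower. The 24 genes listed as other bZIP factors and partners had 12 higher and 3 lower in control mice. In KO mice 13 were higher and 4 lower (medians 0.69 in control and 0.66 in KO mice). Among them were Crem (1.65 and 1.79), Fosl2 (2.42 and 2.68) and Cebpa (-2.64 and -2.23). The counts include Cebpz (1.03 and 1.10), which shares the C/EBP symbol but does not encode a bZIP factor. Of 8 genes listed as family relatives, which include some of the 9, 6 were higher and 2 lower in control and 6 and 1 in KO mice. Trib1, a relative of Trib3, rose by 1.47 ± 0.20 and 1.81 ± 0.20.

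Atf3 is also induced fast by short stimuli, as immediate early genes are, so the 12 listed immediate early genes with a row are given beside it. Of these, 5 were higher and 2 lower with cold in control mice and 6 higher and 0 lower in KO mice (medians 0.022 and 0.90), and their summed counts were 1278 to 5173 at RT and 6903 to 11538 at 4°C. Nr4a1 rose by 4.25 and 3.69, Nr4a2 by 1.76 and 1.60 and Jun by 1.72 and 1.62, beside Dusp1. The sum weighs genes by their counts, and Dusp1 and Nr4a1 had means of 3516 and 2447 normalized counts in control mice at 4°C. Control 4°C mouse 1, highest in Atf3 and Ppp1r15a, was also highest in this sum. Egr1 was called lower in KO mice at RT (-2.65 ± 0.42, limma adjusted p = 0.00636). Its mean in control mice was 451 normalized counts at RT (83.9 to 1148) and 73.5 at 4°C (50.6 to 93.3). In KO mice the means of Egr1 were 52.2 and 72.7. The part of such stimuli in the values of Atf3 was not tested. Markers of other cells moved with cold as well: 5 of 10 endothelial markers were higher and 2 lower in control mice (5 and 1 in KO mice), with summed counts of 5542 to 7708 at RT and 7908 to 13971 at 4°C. Of 9 macrophage markers with a row 1 and 4 were higher, and 2 of 12 neutrophil and lymphocyte markers had a row, with summed counts of 1.60 to 56.2 per mouse. Their part in the values of the 9 genes was not tested.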

How the data were processed

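The authors aligned paired reads of Smart-seq2 libraries to mm10 (GENCODE M7) with STAR 2.4.0j and counted uniquely mapped exonic reads irrespective of strand with HTSeq. The deposited signal is normalized counts, each sample's reads divided by its DESeq2 size factor. Dividing by the step of each sample gave whole reads for 100% of values of up to 200 reads, within 0.02. A deposited table of the authors' own comparisons (fold changes and p-values) was not used, and 0 columns of single samples were left out. Groups and replicate numbers came from the sample labels. The 4 group means of all 23 mice were fitted with limma 3.58.1 (R 4.3.3, variance trend) on log2(normalized count + 1), the added 1 understating changes of genes with low counts, and p-values were adjusted by Benjamini-Hochberg over 14651 genes. Each sample was taken as 1 mouse, from its numbered label and the group sizes in mice that the study gives. Whether mice shared litters or cages is not given in the sources used here, so p-values measure the spread between these samples. Reads copied by PCR are not separate molecules, so read numbers cover counting error only.

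Pairs of neighbours in the order were compared by exact permutation tests and relations with Atf4 by 100000 permutations (numpy 2.4.6, scipy 1.17.1, pandas 2.3.3, Python 3.11.15; figures with matplotlib 3.10.9). Alternatives were a pseudocount of 0.5 or 10, a mean of at least 50, quantile, 75th percentile and TMM scaling, no trend, only the compared groups, the replicate number as a block, edgeR 4.0.16 and DESeq2 1.42.0 on recovered reads, and each mouse left out. The scripts were tested on simulated data. Named were the 9 genes, from each other list the 4 genes with the smallest p for cold in control mice, those called by genotype, and the eIF2 kinases; other genes are given as counts. The cell type marker lists depart from this and are given as counts and sums only. The 9 genes and all lists were chosen with earlier results of these data known. Promoter windows are from RefSeq (GRCm38.p6) and gene positions from GENCODE M21.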

Additional observations from a re-analysis of the deposited data

Results flagged for a closer look

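In 6 of the 36 groups of 1 gene examined, the highest mouse stood apart from the others by Dixon's criterion. Chance meets this criterion in about 1 in 20 groups only where values are normally distributed. It was applied to normalized counts and not to log2 values, and counts can be skewed upward. The 6 groups are therefore not compared with that rate. Control 4°C mouse 1 was high in both Atf3 (771 normalized counts, the next 455) and Ppp1r15a (761, the next 416). Control 4°C mouse 5 was high in Trib3 (437, the next 287). Among BAT-Mcu-KO mice at RT, mouse 1 was high in Atf5 (288, the next 170), mouse 3 in Ppp1r15a (126, the next 69.7) and mouse 4 in Nupr1 (338, the next 225). BAT-Mcu-KO RT mice 3 and 4 and control 4°C mouse 5 are among the 5 mice high in muscle transcripts, and control 4°C mouse 1 is not. For none of the 9 genes did the difference between the genotypes in the response to cold pass its test.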

How the results depend on the processing

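The calls of the 9 genes with cold kept their direction and their side of the threshold under every alternative listed except 1: without the mice high in muscle transcripts (chosen after seeing the data) Atf5 in BAT-Mcu-KO mice was lost. The call of Atf4 between the genotypes at 4°C was lost in the same fit and with only the compared groups, which leaves 0 of the 9 genes called in either, and its adjusted p over all alternatives was 6.38e-05 to 0.3. Differences that were not called turned sign. Chac1 with cold in BAT-Mcu-KO mice was 0.0030 by quantile normalization, 0.72 without the muscle-high mice and -0.42 to 0.23 with single mice left out. Ddit3 with cold in control mice was -0.083 without the muscle-high mice. By genotype at RT, that fit gave -0.13 for Nupr1 and -0.087 for Chac1, and Atf5 was -0.0025 with a pseudocount of 10, -0.0303 by quantile and -0.026 by 75th percentile scaling, -0.083 by edgeR and -0.086 by DESeq2. With single mice left out, Atf5 at RT ranged from -0.19 to 0.22, Nupr1 at RT from -0.072 to 0.14 and the interaction of Ppp1r15b from -0.16 to 0.058.

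Of the 16 neighbouring pairs 4 to 7 were called with single mice left out and 0 without the muscle-high mice, where 9 mice of each genotype remain and the smallest exact p is 0.0238. Pairs that were not called turned sign: Chac1 over Atf5 (-0.25 to 0.47) and Atf5 over Trib3 (-0.10 to 0.40) in control mice, Atf5 over Trib3 (-0.066 to 0.21, -0.085 without the muscle-high mice) and Chac1 over Ddit3 (-0.16 to 0.49) in BAT-Mcu-KO mice, and Ppp1r15b over Chac1 (-0.16 without the muscle-high mice). Of the 16 relations with Atf4, 0 to 1 passed with single mice left out and 0 without the muscle-high mice. The cause of these changes was not tested.

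Over all genes, genotype at RT gave 7 calls, 3 with only the compared groups and 20 by DESeq2. Genotype at 4°C gave 11 calls, 7 without the trend, 2 with only the compared groups or without the muscle-high mice, 6 by edgeR, 23 by DESeq2 and 3 to 16 with single mice left out (3 without control mouse 2). The interaction gave 28 calls by DESeq2 and 0 to 1 with single mice left out. With the replicate number as a block, genotype at 4°C gave 7 calls over all genes, and no call of the 9 genes changed. The numbers were not taken to pair the mice, since the labels give them no shared origin and not every pair's deviations correlated at over 0.1. At 4°C all 5 pairs of the same number correlated positively (0.042 to 0.22, mean 0.12), and 5 of 10 mice correlated best with their own number, so a pairing there cannot be told from these values. Scaling to the 75th percentile moved the median change of all genes with cold in control mice to -0.13. At these depths the limit among the 9 genes is sharpest for Atf3 at RT, with 4 reads in its lowest mouse.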

Other observations

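Within BAT-Mcu-KO mice at 4°C, mice 1 and 5 each had the lowest value of 4 of the 9 genes. Their mean deviations from the group over the 9 genes were -0.16 and -0.41 on the log2 scale, and control 4°C mouse 3, also lowest in 4 of the 9, had -0.19. BAT-Mcu-KO 4°C mouse 2 had the highest value of 4 of the 9, with a mean deviation of 0.30. The summed counts of muscle markers were 11332 in mouse 1, 5482 in mouse 5 and 11220 in mouse 2 of that group, and their part in these values was not tested. These are values of single mice and were not tested.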
